A study of Mus musculus with 44 samples.

Results

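DNA methylation in the hippocampus was compared with that in the frontal cortex of mice 6 h after a lipopolysaccharide (LPS) challenge. The comparison used the 4 hippocampal and the 4 cortical LPS libraries of the 6 h time point, 8 of the 44 libraries of the series, and the cytosines, matched by chromosome, position and strand, that both 6 h tables held. These were 1174503 cytosines, of 1380165 in the hippocampal table and 1335934 in the cortical table. All animals were wild-type adult male C57BL/6J mice of 8 to 12 weeks, housed one to a cage, in a model of Gulf War Illness. Every mouse drank corticosterone (CORT) at 200 mg/L in 0.6% ethanol over 7 days, was injected on day 8 with 4 mg/kg of the organophosphate diisopropyl fluorophosphate (DFP), and went back to CORT in alternate weeks until week 5. The LPS groups then received 0.5 mg/kg LPS under the skin, and saline groups that had the same CORT and DFP received saline in its place, so no group without CORT and DFP was used here. The saline libraries, 3 hippocampal and 4 cortical, served for comparison. Methylation was read by reduced representation bisulfite sequencing from 100 ng of DNA, which covers CpG-rich fragments. The labels do not say whether the 4 libraries of a region came from 4 animals, nor whether both regions came from the same animals, and all p-values here therefore reflect variation among libraries, which may be technical.

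Methylation of the cytosine in a CpG is laid down and kept by DNA methyltransferases and removed through oxidation by TET enzymes. CpG-dense gene starts are mostly unmethylated in any tissue, whereas distal regulatory regions and gene bodies carry patterns that differ between cell types. The hippocampus holds dentate granule cells and CA pyramidal cells, and the frontal cortex holds layered projection neurons. Bisulfite treatment does not separate 5-methylcytosine from 5-hydroxymethylcytosine, which is abundant in neurons. In whole tissue, a different mix of cells and different methylation within the same cells cannot be told apart.

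The hippocampal libraries were less methylated on average. Over the shared cytosines the mean was 25.7, 25.4, 25.7 and 24.9% in the 4 hippocampal LPS libraries and 26.7, 26.7, 28.3 and 26.97% in the 4 cortical LPS libraries. Every hippocampal library lay below every cortical one. The group means were 25.4% ± 0.399 and 27.2% ± 0.762 (SD, n = 4 each), a difference of -1.74 points. A two-sided exact permutation test gave p = 0.0286, the smallest p that 4 against 4 libraries allow. The median cytosine, at 1.58% in hippocampus and 1.18% in cortex, did not follow the mean (difference 0.407 points, exact permutation p = 0.457). In the saline libraries the difference of the means was -0.479 points (exact permutation p = 0.514). The LPS difference exceeded the saline difference by -1.27 points, for which an exact permutation test that exchanged LPS and saline labels within each region gave p = 0.0824. The 2 regions come from separately made tables, so any difference between the tables in processing cannot be told apart from region in these levels.

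**Figure D1:**
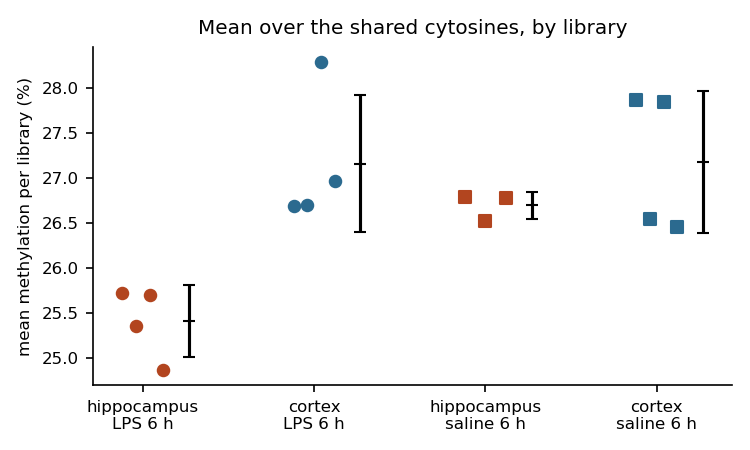
Mean methylation in percent over the 1174503 shared cytosines, 1 point per library, with the group mean and SD in black; the vertical axis does not start at 0. The 4 hippocampal LPS libraries lie at 24.9 to 25.7% and the 4 cortical LPS libraries at 26.7 to 28.3%.

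A library of each region stood apart. Cytosines at 40% or more in a library and at 10% or less in the other 3 of its region numbered 3031 in hippocampal LPS library 4 and 3591 in cortical LPS library 2, against 0 to 18 in the other 6 LPS libraries. The 2 libraries shared 2354 of them, 77.7% of the hippocampal and 65.6% of the cortical set, and at those cortical saline library 3 averaged 79.8%. Neighbouring cytosines on the same strand within 50 bp averaged 0.963% and 1.26% in the 2 libraries. The cause was not tested. Since each region held one such library, results are given without both where that matters. At the tiles that differed between the regions in the saline libraries, every LPS library took the side of its own label: the mean over 2011 saline-higher tiles less that over 4965 saline-lower tiles was 24.99 to 26.5 points in the hippocampal and -7.72 to -4.91 points in the cortical LPS libraries. The tables give percentages with no read counts, so the depth behind each value is unknown.

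Differences between the regions were mostly losses in hippocampus. The genome was divided into 1000-bp tiles, of which 59017 with at least 3 cytosines and a mean level of 5 to 95% were tested with limma, and calls required both a Benjamini-Hochberg adjusted p under 0.05 and regions 5 or more points apart. Lower methylation in hippocampus was called at 11299 tiles (19.1% of those tested) and higher methylation at 1215 (2.06%). The lower tiles had a median level of 35.4% in hippocampus and 59.5% in cortex, with a median difference of -17.0 points. The higher tiles stood at 85.0% in hippocampus and 66.9% in cortex, with a median difference of 14.4 points. The libraries of the 2 regions did not overlap at 9744 of the lower and 1003 of the higher tiles; over all tested tiles, 20.9% had all hippocampal libraries below all cortical ones and 2.58% had them above. With every library's mean subtracted from its values (centring), 8909 tiles were lower and 2258 higher. Without both libraries that stood apart the counts were 11066 and 1207. Without cortical library 4, the higher tiles numbered 802.

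Losses were most frequent among tiles of intermediate methylation. Of the tiles whose mean over both regions was 20 to 50%, 41.4% were lower in hippocampus, against 26.9% at 50 to 80%, 20.4% under 20% and 5.00% at 80% or more. Tiles that held a RefSeq gene start were called lower in 14.8% of cases, other tiles inside protein-coding genes in 21.3% and tiles over 1 kb from such genes in 16.9%. Exons, introns and untranslated regions were not annotated here. The autosomes ranged from 16.9% lower on chromosome 3 to 21.7% on chromosome 11, while 9.96% of 542 tiles on chromosome X and 1 of 71 on chromosome Y were lower. These shares were not tested against each other.

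Among tiles with at least 10 cytosines inside genes, large losses in hippocampus lay in Unc45a and Ccdc97. The Unc45a tile (chr7:80331000-80331999, GRCm38, 12 cytosines), in the gene of a chaperone for myosin heads, stood at 26.3, 24.3, 26.8 and 44.7% in hippocampus and at 82.5, 72.7, 88.2 and 75.7% in cortex. Hippocampal library 4 was the highest of its group and still lay far below every cortical library. The difference was -49.3 points (SE 5.47, limma adjusted p = 0.000112). The Ccdc97 tile (chr7:25715000-25715999, 12 cytosines) averaged 46.9% ± 6.12 in hippocampus and 90.6% ± 0.948 in cortex (SD, n = 4 each), with a difference of -43.7 points (SE 3.78, limma adjusted p = 4.51e-05). The groups did not overlap in either tile, because named tiles were chosen without overlap between the regions.

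The other 9 named losses ran from -42.1 points in Ndst1 to -34.1 points in Rnf31. They lay in Ndst1, an enzyme that modifies heparan sulphate, Otop3, a proton channel, Sipa1l3, Lrrn2, Usp10, a deubiquitinase, Pfas, an enzyme of purine synthesis, Slc22a2, an organic cation transporter, Rab8a, a small GTPase of vesicle transport, and Rnf31, a ubiquitin ligase of the linear-chain complex. In Lrrn2, which encodes a neuronal leucine-rich repeat protein, the loss extended beyond a single tile. The tile chr1:132938000-132938999 stood at 16.7, 24.7, 20.6 and 21.7% in hippocampus and at 51.0, 57.3, 69.1 and 60.001% in cortex, and 8 of the 9 tested tiles of the gene were lower.

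Among the named tiles that were higher in hippocampus, all with at least 10 cytosines and no overlap between the regions, were those in Vps33a, Zc3hc1 and Wdr95. The Vps33a tile (chr5:123531000-123531999, 12 cytosines), in a gene of the complexes that tether endosomes and lysosomes, stood at 94.1, 91.8, 93.8 and 89.5% in hippocampus and at 58.7, 46.0, 77.5 and 55.9% in cortex. The cortical libraries were widely spread and all lay below the hippocampal ones, with a difference of 32.8 points (SE 5.20, limma adjusted p = 0.000845). The other 9 named gains ran from 28.6 points in Zc3hc1 to 20.1 points in Ephb1. They included Kcnj12, an inward-rectifier potassium channel gene, Mtcl1, a microtubule crosslinker, Nr4a1, Adgrb2, Sh2d4b and Cit, which encodes citron kinase. The calls in Sh2d4b, Cit and Ephb1 were the least firm of the 21: without hippocampal library 1 the tile Sh2d4b had a limma adjusted p of 0.0511, without hippocampal library 3 the tile Cit had 0.0586, and over cytosines in all 6 brain tables the tile Ephb1 had 0.0679.

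**Figure D2:**
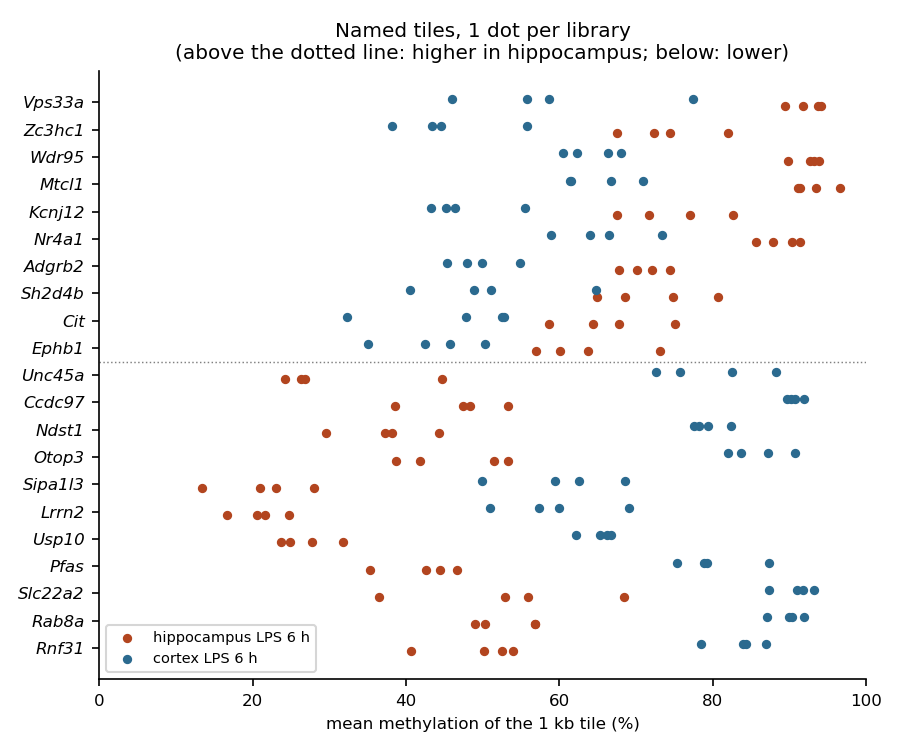
Mean methylation in percent of the 21 named 1000-bp tiles, labelled by gene, with 1 dot per library (4 hippocampal and 4 cortical LPS libraries). The upper 10 are higher and the lower 11 lower in hippocampus; the sets of 4 dots do not overlap in any tile because the tiles were chosen so.

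Few called tiles touched another called tile of the same direction. A stretch also ends where the next tile was not covered or not tested, and how many called tiles had a tested neighbour was not counted. The lower tiles formed 10811 stretches of touching tiles, of which 462 had 2 or more tiles and 25 had 3 or more, and the higher tiles formed 1193 stretches, of which 21 had 2 or more. The longest spanned 4 tiles in Bahcc1 (chr11:120268000-120271999), a chromatin-associated protein gene, at 32.9, 32.4, 34.1 and 30.4% in hippocampus against 51.7, 49.9, 59.1 and 56.5% in cortex. Other lower stretches, each of 3 tiles, lay in Foxo6, a forkhead factor of the hippocampus, Celsr1, an adhesion receptor of planar cell polarity, Lrrn2 and Necab2, a calcium-binding protein. Their mean differences were -13.1, -19.5, -28.5 and -16.7 points. The longest higher stretch spanned 3 tiles in Atxn7l1 (chr12:33344000-33346999), at 72.1, 70.2, 69.3 and 63.9% in hippocampus and at 45.5, 41.1, 52.3 and 41.8% in cortex. In the Bahcc1 and Atxn7l1 stretches the groups did not overlap. A higher stretch of 2 tiles and 35 cytosines lay upstream of the start of Msx1, a homeobox gene (chr5:37825000-37826999). It stood at 12.7, 9.30, 14.8 and 14.0% in hippocampus and at 3.55, 3.94, 3.36 and 2.06% in cortex.

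Prox1, the homeobox factor that sets the identity of dentate granule cells, was less methylated in hippocampus along its body but not at its start. All 6 tested tiles of the gene were lower, and they lay 8.33 to 33.3 kb downstream of the start. The tile chr1:190150000-190150999 stood at 55.6, 53.0, 59.7 and 54.8% in hippocampus and at 94.9, 86.0, 94.5 and 86.9% in cortex (difference -34.8 points, limma adjusted p = 6.28e-05). The tile at the start, chr1:190170000-190170999 with 31 cytosines, averaged 0.518% in hippocampus and 0.371% in cortex and fell below the tested range. The gene as a whole, over 80 cytosines, stood at 12.9, 13.4, 13.2 and 10.8% in hippocampus and at 25.1, 22.0, 26.9 and 25.6% in cortex, with no overlap. That difference of -12.3 points (SE 1.04, limma adjusted p = 0.000462) was -10.6 points after centring and -10.2 points in the saline libraries. Of the genes with at least 5 tested tiles, 4 of 1973 had every tested tile lower: Prox1, Dlg5, Wnt7b and Msantd3. The last 3 were picked after their values were seen. The median gene of that set had 20% of its tiles lower.

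Nr4a1, an orphan nuclear receptor induced by neuronal activity, had 2 of 4 tested tiles higher in hippocampus and 0 lower. Its tile 3.65 kb downstream of the single start in the RefSeq promoter table, chr15:101270000-101270999 with 21 cytosines, stood at 87.9, 90.3, 91.3 and 85.7% in hippocampus and at 66.5, 64.0, 73.4 and 59.0% in cortex. As the rule for named tiles requires, all hippocampal libraries lay above all cortical ones. The difference was 23.1 points (SE 3.32, limma adjusted p = 0.000479). A tile 3.35 kb upstream of that start was 14.7 points higher (limma adjusted p = 0.0325). The tested tiles that were not called differed by -7.62 points 5.35 kb upstream and by 4.32 points 5.65 kb downstream. The tile at that start averaged 0.514% in hippocampus and 0.291% in cortex.

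**Figure D3:**
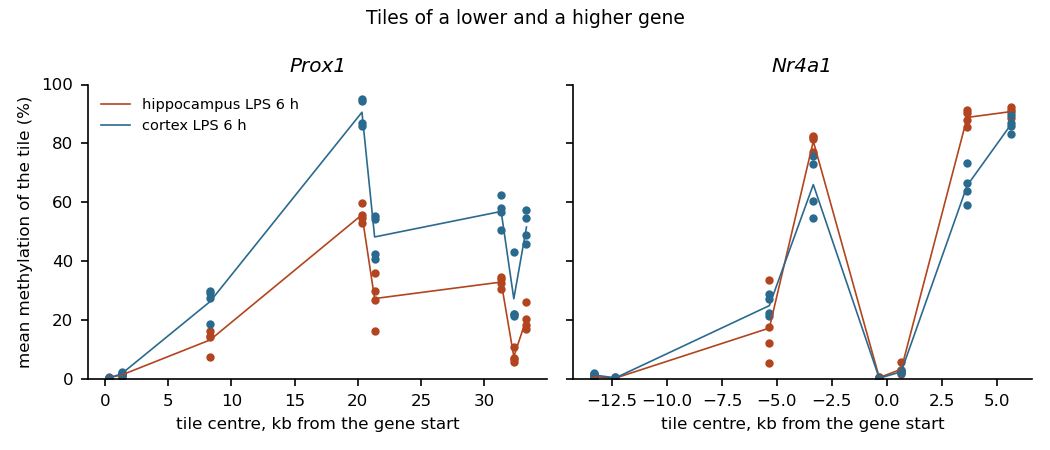
Mean methylation in percent of the 1000-bp tiles of Prox1 (left) and Nr4a1 (right) by distance of the tile centre from the gene start in the RefSeq promoter table in kb, with 1 dot per library and lines that join the group means. Both genes are near 0 at the start; away from it 6 Prox1 tiles are lower and 2 Nr4a1 tiles higher in hippocampus.

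Few gene starts differed. Of 8917 RefSeq promoter windows with at least 3 cytosines, from 250 bases before to 50 after a start, 488 had a mean level of 5 to 95%, and of these 41 (8.40%) were lower and 0 higher in hippocampus by limma. These calls were fragile: leaving out 1 library at a time gave 70 lower windows without cortical library 2 and, without the others, 17, 4, 10 and 16 for hippocampal libraries 1 to 4 and 8, 7 and 3 for cortical libraries 1, 3 and 4. A test of all 8917 windows called 0. None of the 41 belonged to a gene picked by the rule for named genes. Shown here are the 250 bases before the start, 5′ to 3′ on the strand of the gene, of 4 called windows chosen after their values were seen (at least 8 cytosines, no overlap between the regions, a gene symbol other than a Gm number or Riken clone name, largest difference first), and of the second Prox1 start as an unmethylated contrast. The limit on symbols passed over Gm2511 (-34.6 points) and 4932438H23Rik (-19.02 points). Capitals mark the CpGs at which a cytosine was measured on either strand, 3 for Espnl, 3 for Scn8a, 6 for Arhgef2, 4 for Slc6a9 and 3 for Prox1; the other measured cytosines of a window lie within 50 bases after the start. The sequences are RefSeq's, of GRCm38.p6.
Espnl: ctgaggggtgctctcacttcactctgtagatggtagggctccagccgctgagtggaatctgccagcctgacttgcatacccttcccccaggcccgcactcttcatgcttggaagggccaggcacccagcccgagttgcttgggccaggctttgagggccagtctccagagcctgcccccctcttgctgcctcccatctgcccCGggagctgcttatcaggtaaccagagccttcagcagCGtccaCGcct
Scn8a: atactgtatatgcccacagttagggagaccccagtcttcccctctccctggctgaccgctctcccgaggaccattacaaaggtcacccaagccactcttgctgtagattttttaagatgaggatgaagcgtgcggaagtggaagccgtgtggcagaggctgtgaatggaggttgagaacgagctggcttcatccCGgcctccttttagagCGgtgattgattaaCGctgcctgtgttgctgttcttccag
Arhgef2: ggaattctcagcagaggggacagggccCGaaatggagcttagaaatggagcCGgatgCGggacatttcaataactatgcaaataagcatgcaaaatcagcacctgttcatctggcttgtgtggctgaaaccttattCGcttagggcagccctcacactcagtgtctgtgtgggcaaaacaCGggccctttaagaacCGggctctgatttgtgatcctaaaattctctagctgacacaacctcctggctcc
Slc6a9: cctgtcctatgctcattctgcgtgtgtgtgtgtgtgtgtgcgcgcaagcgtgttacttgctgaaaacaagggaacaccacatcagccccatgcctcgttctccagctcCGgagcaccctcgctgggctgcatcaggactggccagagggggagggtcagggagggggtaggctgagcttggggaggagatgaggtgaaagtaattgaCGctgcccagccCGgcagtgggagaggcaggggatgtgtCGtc
Prox1: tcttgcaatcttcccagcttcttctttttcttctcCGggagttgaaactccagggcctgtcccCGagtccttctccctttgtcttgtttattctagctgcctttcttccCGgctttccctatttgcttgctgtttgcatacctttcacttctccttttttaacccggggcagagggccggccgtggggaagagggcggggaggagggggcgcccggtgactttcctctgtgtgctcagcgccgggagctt

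Espnl, an espin-like actin-bundling protein, has a single start in the table (chr1:91321825-91322074 for the printed bases, plus strand). Its window stood at 40.9, 36.0, 36.1 and 46.6% in hippocampus and at 54.3, 70.2, 75.7 and 62.7% in cortex, without overlap, and all 9 measured cytosines were lower, by differences of -42.9 to -16.1 points. The Scn8a window (chr15:100936021-100936270, plus strand, the second of 2 starts), in the gene of the sodium channel Nav1.6, averaged 32.1% ± 7.65 and 51.2% ± 4.24 (SD, n = 4 each), with all 9 cytosines lower. The window of Arhgef2 (chr3:88615893-88616142, plus strand, the first of 4 starts), a microtubule-bound activator of RhoA, averaged 23.3% ± 3.70 and 41.0% ± 7.10 (SD, n = 4 each), with all 8 lower. That of Slc6a9 (chr4:117849100-117849349, plus strand, the second of 3 starts), which encodes the glycine transporter GlyT1, averaged 27.3% ± 5.54 and 43.7% ± 5.65 (SD, n = 4 each), with all 11 lower. The limma adjusted p was 0.0211 for Espnl and 0.0268, 0.0250 and 0.0363 for the others, and each call was lost in some of the alternatives. The Prox1 window (chr1:190169516-190169765, minus strand) averaged 1.67% ± 1.42 in hippocampus and 1.93% ± 1.01 in cortex (SD, n = 4 each), and its 6 cytosines differed by -1.54 to 1.25 points.

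Averaged over whole genes with 1 kb on either side, 3122 of 11163 genes were lower in hippocampus (28.0%) and 108 higher (0.967%) by limma at an adjusted p under 0.05. This balance changed with centring. After centring, which moved the median difference over all genes from -1.19 to 0.556 points, 1619 genes were lower (14.5%) and 2145 higher (19.2%). Centring moves the difference of every gene up by the same amount, whatever its level. A gene with equal levels in both regions thus comes out higher in hippocampus, and the centred counts may overcorrect. Among tiles, lower calls still outnumbered higher ones after centring (8909 and 2258). The gene lists below are therefore given with their counts after centring, and each count is to be read beside these shares over all genes. Without hippocampal library 2 or 3 or cortical library 4, the higher genes numbered 60, 71 and 67.

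Of the markers of dentate and CA neurons, 12 of 18 tested genes were lower (66.7%, beside 28.0% over all genes) and 0 higher. After centring, 6 were lower and 1 higher, beside 14.5% and 19.2% over all genes. The median difference before centring was -2.38 points, against -1.19 over all genes. Besides Prox1, Zbtb20, a zinc-finger repressor that specifies CA1 neurons, stood at 28.4, 28.5, 29.3 and 27.6% in hippocampus and at 34.9, 33.7, 36.0 and 36.2% in cortex, with no overlap. The difference was -6.74 points (SE 0.713, limma adjusted p = 0.000909). In the same gene, the tile chr16:43538000-43538999 (4 cytosines) differed by -46.2 points, at 25.9% ± 6.50 against 72.1% ± 8.32 (SD, n = 4 each). Lct, the lactase gene, was at 73.9% ± 5.57 against 89.2% ± 3.18 (SD, n = 4 each), over 9 cytosines. The gene Grik4, for a kainate receptor subunit of CA3, was at 39.7% ± 0.884 against 46.7% ± 1.61 (SD, n = 4 each), but 2 of its 31 tested tiles were higher and 9 lower, and its ends alone differed by 3.01 points in the other direction (limma adjusted p = 0.0526).

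Of the layer markers of cortex, 6 of 19 tested genes were lower (31.6%) and 0 higher, near the 28.0% lower over all genes. After centring, 3 were lower and 4 higher, beside 14.5% and 19.2% over all genes. Bcl11b, the factor of subcerebral projection neurons, was among the lower genes, at 25.5, 24.8, 25.1 and 23.3% in hippocampus and 32.2, 30.4, 34.9 and 32.7% in cortex, and 15 of its 23 tested tiles were lower. Tbr1, a factor of deep-layer neurons, averaged 3.20% and 3.01% and lay below the tested range. Fezf2 had 1 lower and 1 higher tile among 3 tested, and its gene-wide difference of -1.46 points became 0.281 after centring.

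Of the genes that pattern the telencephalon, 12 of 25 tested were lower (48%, beside 28.0% over all genes) and 0 higher. After centring, 4 were lower and 5 higher, beside 14.5% and 19.2% over all genes. Nfix, a nuclear factor I protein, was at 7.06, 6.89, 6.87 and 6.74% in hippocampus and at 12.1, 10.5, 16.4 and 13.3% in cortex. The hippocampal libraries lay close together and below all cortical ones, and 14 of 23 tested tiles of the gene were lower. The homeobox gene Emx2 had 3 of 4 tested tiles lower, and Lhx2 had 2 of 9, beside 19.1% of all tested tiles. The lower Lhx2 tiles lay 28.2 and 29.2 kb downstream of its start. The starts of Emx2 and Lhx2 averaged 1.15% or less in both regions. Nr2f1, a nuclear receptor of cortical area patterning, averaged 1.47% and 4.43% and lay below the tested range.

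Of the genes of axon guidance and adhesion, 26 of 48 were lower (54.2%, beside 28.0% over all genes) and 0 higher. After centring, 17 were lower and 6 higher, beside 14.5% and 19.2% over all genes. Slit3, a secreted ligand of Robo receptors, stood at 33.9, 33.2, 35.5 and 31.0% in hippocampus and at 44.9, 43.4, 50.2 and 47.5% in cortex. The groups did not overlap, the difference was -13.1 points (SE 1.61, limma adjusted p = 0.00153), and 22 of 30 tested tiles were lower. Slit1 was lower by a difference of -8.94 points and Sema3b, a secreted semaphorin, by -10.7 points. In Ephb1, a receptor of ephrin-B ligands, tiles went both ways, with 4 lower and 2 higher of 12.

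Of glutamate receptor and synapse genes, 15 of 33 were lower and 0 higher, and 12 and 5 after centring. Over all genes, 28.0% were lower before centring, and 14.5% lower and 19.2% higher after it. The gene Gria1, for an AMPA receptor subunit, stood at 39.4, 36.4, 40.8 and 37.4% in hippocampus and at 49.7, 46.4, 49.8 and 49.4% in cortex, without overlap, a difference of -10.3 points (SE 1.24, limma adjusted p = 0.00139) that was -0.337 points at the gene ends alone. Homer2, a postsynaptic scaffold, differed by -7.94 points. Of potassium channel genes, 10 of 30 were lower (33.3%, beside 28.0% over all genes) and 1 higher, and 5 and 9 after centring. Of neurotrophin and activity genes, 4 of 9 were lower and 1, Nr4a1, higher, and 2 and 4 after centring. Bdnf averaged 1.88% and 1.78% and was not tested.

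Of cholinergic genes, 11 of 20 were lower (55%) and 0 higher, beside 28.0% lower over all genes. After centring, 4 of the cholinergic genes were lower and 2 higher, beside 14.5% and 19.2% over all genes. All 3 named members encode nicotinic receptor subunits. Chrna6 (8 cytosines) stood at 31.8, 28.3, 29.5 and 36.3% in hippocampus and at 54.1, 47.9, 61.4 and 55.4% in cortex, with no overlap and a difference of -23.2 points (SE 2.84, limma adjusted p = 0.00150). Chrna2 (5 cytosines) differed by -20.7 points and Chrnb3 (13 cytosines) by -8.58 points. Of glucocorticoid genes, 5 of 12 were lower and 0 higher, and 2 and 3 after centring, with the zinc-finger repressor Zbtb16 at -7.24 points. Nr3c2, the mineralocorticoid receptor, was at 9.66% ± 0.209 against 11.6% ± 0.217 (SD, n = 4 each), a difference of -1.98 points that came to -0.238 after centring and was then not called. The glucocorticoid receptor gene Nr3c1 (1.78% and 1.34%) and Fkbp5 (4.53% and 4.69%) lay below the tested range in both regions.

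Of inflammatory genes, 2 of 16 were lower (12.5%, beside 28.0% over all genes), and 0 lower and 3 higher after centring. Over all genes, 14.5% were lower and 19.2% higher after centring. The 2 lower inflammatory genes before centring were Irf8, at 39.3% against 43.3%, and Nfkb1, at 14.7% against 17.2%. Tnf, over 6 cytosines, was at 61.4% ± 0.848 against 65.9% ± 4.18 (SD, n = 4 each), which did not pass (limma adjusted p = 0.127). Of the genes of the methylation machinery, 2 of 13 were lower, and 1 lower and 4 higher after centring. They were Mbd2, a reader of methylated CpGs, at 10.1% ± 0.260 against 16.3% ± 1.30, and the methyltransferase Dnmt3a, at 9.99% ± 0.706 against 11.6% ± 0.586 (SD, n = 4 each), whose difference of -1.58 points became 0.164 after centring. Of imprinted genes, 6 of 32 were lower, and 2 lower and 1 higher after centring.

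Among markers of other cells, 7 of 12 astrocyte genes were lower and 0 higher (5 and 0 after centring), with a median difference of -3.65 points. Slc1a3, the glial glutamate transporter GLAST, was at 27.8, 27.3, 27.3 and 26.6% in hippocampus and at 33.7, 31.4, 35.5 and 33.6% in cortex, without overlap. Lower genes numbered 2 of 16 for oligodendrocytes, 5 of 15 for microglia, 6 of 19 for endothelium and pericytes and 8 of 28 for leukocytes, with 0 higher in each. After centring 0, 3, 4 and 5 were lower and 2, 1, 2 and 2 higher. The shares for microglia (33.3%), endothelium and pericytes (31.6%) and leukocytes (28.6%) lay near the 28.0% lower over all genes. After centring, 14.5% of all genes were lower and 19.2% higher. Among the leukocyte genes was Ctsg, a neutrophil protease gene with 5 cytosines, at 58.7% ± 5.40 against 83.7% ± 3.98 (SD, n = 4 each). Of tissue that a dissection could carry along, 6 of 11 striatal, 1 of 8 thalamic and 3 of 11 choroid, ependymal and meningeal markers were lower and 0 higher; after centring 5, 1 and 1 were lower and 3, 1 and 0 higher. What part a different cell mix has in these differences was not tested.

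In the remaining lists, lower genes numbered 3 of 11 for interneurons, 4 of 11 for GABA receptors and transporters, 7 of 22 for developmental Sox, Fox, Tbx and Pax genes, 1 of 5 for protocadherins and 0 of 2 for the Hox clusters, with 0 higher, beside 28.0% lower over all genes. After centring they were 3, 2, 0, 0 and 0 lower and 2, 1, 9, 1 and 0 higher, beside 14.5% lower and 19.2% higher over all genes. Vip, an interneuron neuropeptide, was at 44.6, 44.4, 45.0 and 39.0% in hippocampus and 54.5, 53.3, 56.8 and 54.1% in cortex, over 7 cytosines.

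**Figure D4:**
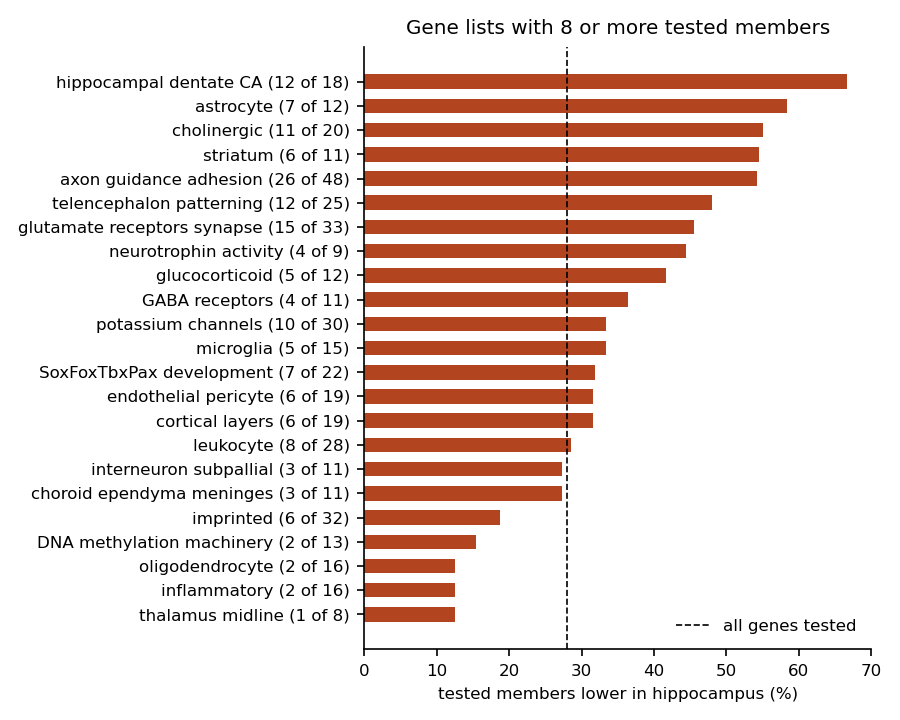
Share in percent of the tested members of each gene list that were lower in hippocampus (counts in parentheses), for lists with 8 or more tested members; the dashed line is the share over all genes tested, 28.0%. After centring, 14.5% of all genes are lower. The lower counts are then 6 of 18 in place of 12 for dentate and CA markers. For axon guidance they are 17 of 48 in place of 26. Those of interneurons (3 of 11) and thalamus (1 of 8) are as before.

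At single cytosines, 29457 of 397664 tested were lower (7.41%) and 2900 higher (0.729%) in hippocampus, by limma at an adjusted p under 0.05, with regions 10 or more points apart. These counts moved with single libraries: the lower count was 44896 without cortical library 2 and 19240, 15306, 19612 and 16261 without hippocampal libraries 1 to 4, and 17604, 15454 and 13486 without cortical libraries 1, 3 and 4. The higher count was 1345, 1148, 1283 and 1796 without hippocampal libraries 1 to 4 and 1533 and 1169 without cortical libraries 1 and 4.

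Most of the called tiles had the same direction in mice that had received saline. Of the 11299 lower tiles, 92.7% were lower also in the saline libraries, with a median difference of -9.79 points against -17.0 in the LPS libraries, and of the 1215 higher tiles 98.4% were higher, with medians of 14.3 and 14.4 points. These tiles were chosen on the LPS libraries, and over all 59017 tested tiles 67.5% had the same direction. All 21 named tiles had the same direction in saline. In saline alone, 4965 of 58848 tiles were lower (8.44%) and 2011 higher (3.42%). A limma test of whether the difference between the regions differed between LPS and saline called 0 of 59099 tiles, and 5744 had an unadjusted p under 0.05. Without cortical library 2 it called 2. Over the 59017 tested tiles, the differences in LPS and saline correlated at Pearson r = 0.793, a description across tiles, which share their libraries. At the later LPS times, lower tiles numbered 1004 (1.71%) at 12 h and 11433 (20.4%) at 24 h, and higher tiles 272 (0.464%) and 1842 (3.29%). The 12 h counts rest on 3 hippocampal and 4 cortical libraries, the 24 h counts on 4 of each. Of the tiles called lower at 6 h, 95.5% of those covered were lower also at 12 h, with a median of -10.5 points. Of those called higher at 6 h, 96.5% were higher at 12 h, with a median of 13.8 points. These tiles were chosen on the 6 h libraries, and over all 58561 tiles covered at 12 h 71.8% had the same direction. The correlation with the 6 h differences was r = 0.812 at 12 h (58561 tiles) and 0.816 at 24 h (56104 tiles).

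**Figure D5:**
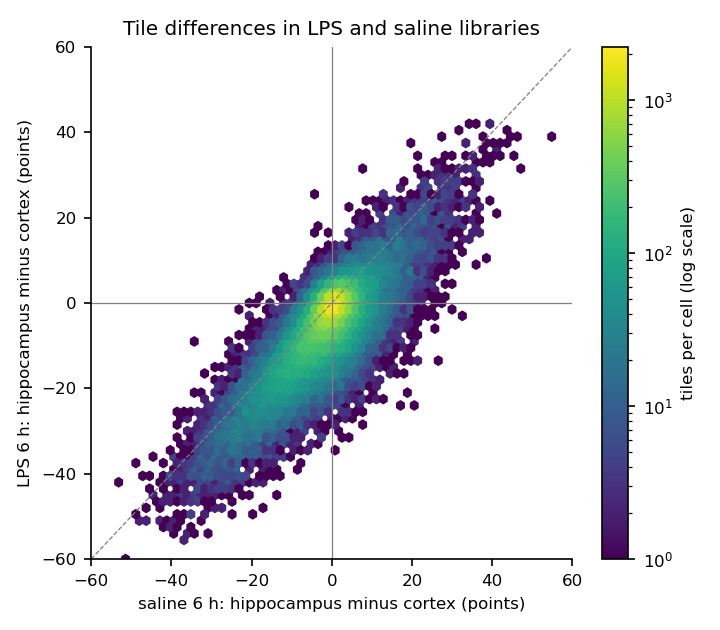
Difference in methylation between hippocampus and cortex, in points, of the 59017 tested tiles in the LPS 6 h libraries (vertical) against the saline 6 h libraries (horizontal); colour is the number of tiles on a log scale and the dashed line marks equal differences. The differences correlate at Pearson r = 0.793 but are not equal, with a median of -2.53 points in LPS and -0.192 in saline.

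In blood of the LPS group at 6 h, the tiles lower in hippocampus had a median of 82.0% (66.0% in saline blood), against 36.5% in hippocampus and 60.6% in cortex over the 10677 of them that blood also covered. The tiles higher in hippocampus had 89.4% in LPS blood (85.7% in saline blood), against 85.1% in hippocampus and 67.7% in cortex over 1168 tiles. Blood, too, sits in a table of its own.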

How the data were processed

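Reduced representation bisulfite libraries were made with the Ovation RRBS Methyl-Seq System, per the labels' protocols. The deposited tables give percent methylation per cytosine, made by the authors for each tissue and time; the submitters' processing notes name methylKit, Bismark, Bowtie2, SAMtools, FastQC and Trim Galore and the build GRCm38 (mm10). Tool versions, coverage filters and any merging: not given in the sources used here. Read counts were not used here, so no count test or coverage minimum was possible. Of the cytosines in RefSeq promoter windows, 157103 of 157104 were the C of a CpG in the GRCm38.p6 letters. Percentages were averaged over 1000-bp tiles, protein-coding genes with 1000 bp either side and promoter windows, with at least 3 cytosines, and tested with limma 3.58.1 (R 4.3.3, eBayes with trend, two-sided, levels of 5 to 95%, Benjamini-Hochberg over all features). The library means were tested by exact permutation in Python 3.11.15. The fit was tested on simulated data. Named tiles were the 12 largest differences each way among called tiles with at least 10 cytosines near a gene and no overlap between regions; named stretches were the 5 longest each way, and named list genes up to 3 called genes each way, with a further set of genes named whatever their values; a few that these rules pick are not reported here. The members, gene lists and tests were chosen with earlier results of these data known. No libraries were identical: the closest pair held equal values at 45.1% of cytosines.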

Additional observations from a re-analysis of the deposited data

Results flagged for a closer look

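In groups of 4 libraries, a library was singled out where its gap to the nearest other took up most of the group's range (Dixon's test at the 95% level). This held for 9 of 218 groups examined, and chance gives about 1 in 20. The counts of isolated high cytosines stood out most, with 3031 in hippocampal LPS library 4 and 3591 in cortical LPS library 2. Hippocampal library 4 was also high at the Unc45a tile (44.7%, against at most 26.8% in the other 3), and low at Vip (39.0%), Adarb2 (65.8%) and Dnmt3a (8.94%). Hippocampal library 2 was low at Tbx21 (21.6%). In cortex, library 3 was high at Lct (93.9%) and library 2 low at Gria1 (46.4%). The cause was not tested.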

How the results depend on the processing

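Depth was not given, so no coverage limit could be varied. Of the 24 tiles that the rule for named genes picks, 21 kept their direction and their call under every alternative run, and of the 70 list genes examined 36 did. The 500-bp tiles (11032 lower and 1273 higher), the logit scale (11098 and 1218), cytosines shared by all 6 brain tables (9667 and 967), averaged strands (10829 and 1182), all 4 groups in 1 fit (13082 and 1413) and no trend (11183 and 1124) left the tile counts within 1.5 times. Centring gave 2258 higher tiles, 2145 higher and 1619 lower genes and 3 higher promoters. Tiles with at least 10 cytosines gave 146 higher and 1636 lower, gene ends alone 30 and 573 genes, and a 25-point minimum 1636 higher cytosines, each over fewer features or a stricter limit. With no limit on the level, cytosines gave 368 higher and 6244 lower and promoters 0 lower, over more features. Promoters gave 1 higher without trend and 1 higher without both libraries that stood apart, alternatives chosen after seeing the data.

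Leaving out 1 library at a time gave 802 to 1475 higher and 8037 to 13203 lower tiles, 60 to 147 higher and 2114 to 3352 lower genes, 1148 to 4030 higher and 13486 to 44896 lower cytosines, 0 to 1 higher and 3 to 70 lower promoters, and 0 to 2 lower tiles in the test of LPS against saline. Of the 11299 lower tiles 6876, and of the 1215 higher tiles 627, were called whichever library was left out. The difference of library means was -1.90 to -1.37 points (exact permutation p = 0.0571 each, the smallest possible). Without both libraries that stood apart it was -1.72 (exact permutation p = 0.1, also the smallest). With all 8 libraries, the difference of the median cytosine was 0.407.

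Whether the replicate numbers pair the regions is not known. Deviations of same-numbered libraries correlated at 0.0018, 0.0284, 0.12 and -0.0651, and not every library correlated best with its own number. The highest correlation, 0.1997, joined hippocampal library 4 and cortical library 2, the libraries that stood apart. Such correlations cannot decide whether libraries came from the same animal. With the replicate block, 1248 tiles were higher and 11239 lower, 92 and 2691 genes, 2186 and 22516 cytosines, 5 promoters were lower, 0 tiles differed between LPS and saline, and the mean difference of -1.74 points had an exact sign-flip p of 0.125, the smallest that 4 pairs allow.

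Directions turned in Lmx1a (0.501 points), Dnmt3a (0.164) and Fezf2 (0.281) after centring, in Grik4 (3.01), the gene Kcnq1 (0.305) and Fezf2 (2.46) at gene ends, and in Syn1 (1.99) with cytosines in all 6 tables; the cause was not tested.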

Other observations

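Among the 1973 genes with at least 5 tested tiles, 371 had no tile called, 236 had tiles called both ways and 81 had more higher than lower tiles in hippocampus. The genes that follow were picked after their values were seen. Tcf4, a basic helix-loop-helix factor of neurons, had 21 of 23 tested tiles lower and 0 higher. Epha4, an ephrin receptor, and Fyn, a Src-family kinase, each had 6 of 7 lower. Gse1 had 42 of 75 lower and 1 higher. In the other direction, the zinc-finger gene Zfp503 had 3 of 5 tiles higher, Sgk1, a kinase induced by glucocorticoids, 3 of 8, and Trf, which encodes transferrin, 3 of 6 with 1 lower.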
